A study of Mus musculus with 8 samples.

Results

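Aminoacyl-tRNA synthetases join each amino acid to its tRNA, the step that gives the genetic code its meaning. The 36 genes described here come from a list that does not hold every synthetase gene in the count table of this islet study. They are 16 genes for enzymes of mitochondria and 20 for enzymes of the cytosol, of 22609 gene symbols in all. They were chosen by name, with Lars2, the mitochondrial leucyl-tRNA synthetase, singled out for a level that was higher after Sirt6 deletion in adult beta cells and not after deletion in the endocrine lineage. All 36 passed the filter on low counts, which kept 15041 genes, and none rested on fewer than 72 reads in any library.

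Poly(A) RNA of primary islets was sequenced in 8 libraries that form 4 groups of 2, all from male mice of mixed strain background at 8 to 9 weeks. BKO islets carried MIP1-CreERT, a tamoxifen-dependent Cre under an insulin promoter, with both Sirt6 alleles floxed (f/f), and were collected 2 weeks after tamoxifen. Of the BKO controls, which carried MIP1-CreERT as well, library 1 was Sirt6 f/+ and library 2 was Sirt6 +/+, and the labels do not say whether they received tamoxifen. EKO islets carried Ngn3-Cre, which acts in endocrine progenitors, with Sirt6 f/f, and the EKO controls carried Ngn3-Cre with Sirt6 +/+. Every group thus carried a Cre transgene, and none was free of one. All islets were isolated with collagenase and kept for 4 h in medium with 10% serum before RNA was taken. Apart from the BKO controls, whose genotypes differ, nothing in the labels says that the replicates came from separate animals, so p-values measure the spread between these libraries, which may be technical.

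Mitochondria make a small set of respiratory chain proteins on their own ribosomes, with tRNAs encoded in mitochondrial DNA and synthetases encoded in the nucleus and imported. The cytosolic synthetases serve all other protein synthesis; 8 of the 20 belong to the multisynthetase complex, and Gars and Kars each encode both the cytosolic and the mitochondrial enzyme. In beta cells, ATP made by the respiratory chain couples glucose to insulin secretion, and leucine is itself a stimulus of secretion. The mitochondrial leucine tRNA is a known site of mutation in maternally inherited diabetes, and mutations of human LARS2 cause Perrault syndrome, with deafness and ovarian failure.

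Reads assigned to genes numbered 37302246 to 44442165 in the BKO-model libraries and 22330252 to 23673180 in the EKO-model libraries. Endocrine markers were abundant in each library, with 8 beta cell markers summing to 167900 to 307100 CPM (read counts scaled to the size of the library). The EKO-model libraries numbered 1 stood apart. Their 12 acinar markers summed to 6860 CPM in control 1 and 1879 CPM in EKO 1, against 465 and 190 CPM in the libraries numbered 2, and against 178 and 58.0 CPM for BKO and 666 and 499 CPM for its controls. Of these markers Amy2a5 had no read in any library. The 6 stellate cell and fibroblast markers summed to 2386 and 959 CPM in EKO-model control 1 and EKO 1, against 28.4 and 114 CPM in the libraries numbered 2. For Sirt6 itself, the libraries of the BKO model held 18.8 and 12.6 CPM (controls) and 16.8 and 22.8 CPM (f/f), and those of the EKO model 24.4 and 17.0 CPM (controls) and 24.2 and 21.6 CPM (f/f). A count over the whole gene does not show whether the floxed part was lost. In these bulk samples fewer cells of a type and less RNA per cell cannot be told apart.

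The sequences upstream of 4 genes are shown because the results turn on them: Lars2 for its level in BKO, Farsa and Farsb as subunits of 1 enzyme of which DESeq2 called Farsa and not Farsb between the controls of the models, and Aars as the cytosolic gene with the highest fold change in EKO. Each runs from 250 bases before the annotated start to 30 bases into the gene, on the gene's strand, from RefSeq on GRCm38.p6, which held 28 of the 36 genes. Capitals mark matches, on either strand, to a C/EBP-ATF response element (TGATGCAA), a YY1 motif (AANATGGC) or an ETS motif (CCGGAAG).
Lars2, chr9:123366677-123366956, plus strand: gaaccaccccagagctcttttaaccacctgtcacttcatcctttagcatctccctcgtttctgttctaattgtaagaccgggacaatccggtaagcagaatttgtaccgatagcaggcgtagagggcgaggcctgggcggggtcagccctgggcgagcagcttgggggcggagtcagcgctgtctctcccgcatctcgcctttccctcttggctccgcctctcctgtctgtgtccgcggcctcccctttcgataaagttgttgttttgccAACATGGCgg
Farsa, chr8:84856736-84857015, plus strand: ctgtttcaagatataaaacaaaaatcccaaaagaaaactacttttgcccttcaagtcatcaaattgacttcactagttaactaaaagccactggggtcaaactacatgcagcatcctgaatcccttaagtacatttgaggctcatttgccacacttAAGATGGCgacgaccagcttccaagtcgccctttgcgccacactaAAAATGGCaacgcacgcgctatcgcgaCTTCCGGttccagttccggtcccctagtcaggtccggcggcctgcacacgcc
Farsb, chr1:78488868-78489147, minus strand: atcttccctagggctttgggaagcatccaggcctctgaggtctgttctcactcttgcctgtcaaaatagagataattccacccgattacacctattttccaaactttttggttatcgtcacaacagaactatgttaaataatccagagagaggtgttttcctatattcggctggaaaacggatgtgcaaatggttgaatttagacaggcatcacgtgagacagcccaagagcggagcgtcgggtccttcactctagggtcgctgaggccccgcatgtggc
Aars, chr8:111033592-111033871, plus strand: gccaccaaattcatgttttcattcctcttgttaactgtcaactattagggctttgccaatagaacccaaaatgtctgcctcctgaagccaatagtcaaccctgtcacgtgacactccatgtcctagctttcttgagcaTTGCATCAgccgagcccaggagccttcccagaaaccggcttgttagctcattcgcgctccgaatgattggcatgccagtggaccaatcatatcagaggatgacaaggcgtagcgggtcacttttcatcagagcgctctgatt

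The Lars2 window held 1 match, a YY1 motif whose first base lay 21 bases from the start. YY1 motifs were found in the windows of 4 of 15 mitochondrial genes (Lars2, Aars2, Wars2 and Yars2) and in 1 of 13 cytosolic genes, Farsa, which held 2, against 6.96% of 27025 genes in the table. The C/EBP-ATF element, through which ATF4 acts on amino acid genes, was found in 0 of 15 mitochondrial and 4 of 13 cytosolic windows (Aars, Iars, Tars and Yars), against 1.03% of all genes. In Aars it lay 112 bases upstream of the start. ETS motifs were in 5 of 15 mitochondrial and 5 of 13 cytosolic windows, against 9.93% of all, and NRF1 motifs in 2 of 15 and 3 of 13, against 5.19%. These counts describe the whole windows of the RefSeq table, on both strands, where motifs may overlap, and a match is not a bound site. Farsb had no match in the bases shown.

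Lars2 stood higher in BKO than in its controls, as its choice requires. BKO libraries held 625 and 649 CPM of Lars2 against 265 and 297 CPM for their controls. EKO libraries held 139 and 164 CPM against 191 and 147 CPM for theirs. The BKO libraries lay above every other library and the EKO libraries overlapped their controls. The means were 637 ± 16.4 CPM (SD, n = 2) in BKO, 281 ± 22.5 in its controls, 169 ± 30.8 in the EKO controls and 152 ± 17.4 in EKO. The BKO and BKO control means are separated by far more than either spread, the BKO controls lie above both EKO-model groups, and these last 2 groups do not differ beyond their spread. The fitted log2 fold change was 1.18 ± 0.19 (SE) in BKO, 2.27-fold, and -0.15 ± 0.19 in EKO, and the difference between these effects was 1.34 ± 0.26. Because these values chose Lars2, they are a description and no p is given for them. In the fits across all genes edgeR did not call Lars2 in BKO, EKO or their difference, and DESeq2 called it in BKO and in the difference, an outcome that its choice favoured. Acinar sums were lower in BKO than in its controls, as given above, and so were the sums of 6 duct markers, at 648 and 1578 CPM against 2540 and 3231 CPM. With the acinar level as a covariate the log2 fold change of Lars2 in BKO was 1.22. The authors' deposited table for BKO lists 99 genes, with Lars2 at a log2 fold change of 1.04 and no other gene of the 36. The authors' deposited table for EKO lists 243 genes and none of the 36.

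Lars, the cytosolic leucyl-tRNA synthetase and a leucine sensor of the mTORC1 pathway, stayed within the spread of the libraries. BKO libraries held 199 and 229 CPM of Lars against 235 and 179 CPM for their controls, and EKO libraries 255 and 227 CPM against 211 and 241 CPM. Each knockout overlapped its controls. Its log2 fold change was 0.05 ± 0.19 in BKO and 0.09 ± 0.19 in EKO (adjusted p = 1 in each, by edgeR's quasi-likelihood test, with p-values adjusted over all genes after Benjamini and Hochberg).

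**Figure D1:**
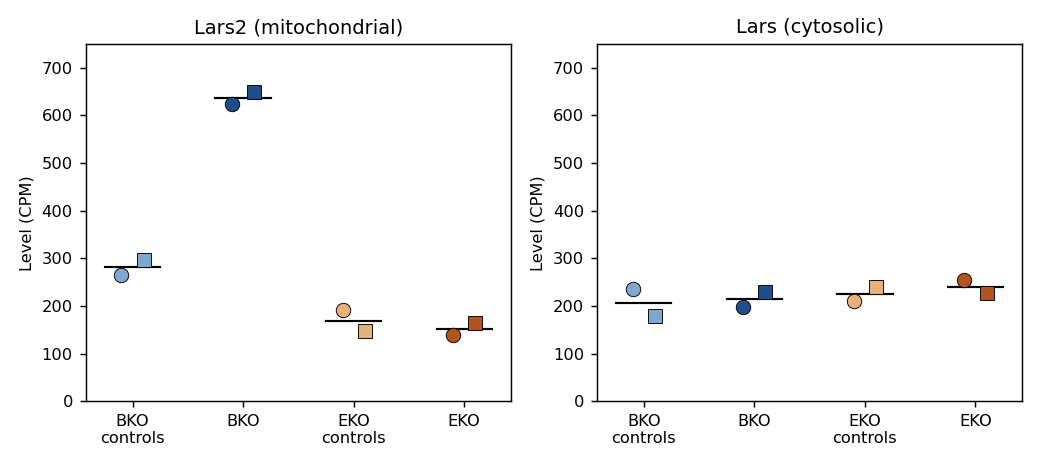
Levels of Lars2 (left) and Lars (right) in CPM in the 4 groups; circles are libraries numbered 1, squares libraries numbered 2, and lines the means of the 2 libraries. Lars2 stands at 625 and 649 CPM in BKO, above every other library, while the Lars libraries lie between 179 and 255 CPM in all groups.

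Per transcript length, Lars2 had the highest level of the 16 genes classed as mitochondrial in each of the 8 libraries. Gars and Kars, which also encode mitochondrial enzymes, are classed as cytosolic and left out of this ranking. Over the libraries Gars stood at 151 to 218 CPM per kb and Kars at 58.3 to 80.2. Levels were divided by the length of the principal GENCODE transcript, which is 3894 bases for Lars2. In CPM per kb, Lars2 measured 161 and 167 for BKO against 68.1 and 76.3 for its controls, and 35.7 and 42.1 for EKO against 49.0 and 37.8. Next came Rars2, the mitochondrial arginyl-tRNA synthetase, at 19.4 to 25.2 CPM per kb over the libraries. The ratio of Lars2 to Rars2 was 7.31 and 7.63 in the BKO libraries against 3.12 and 3.39 in their controls, and 1.62 and 1.77 in the EKO libraries against 2.53 and 1.5.

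Of the summed CPM per kb of the 16 mitochondrial genes, Lars2 held 59.7% and 59.6% for BKO against 38.7% and 39.1% for its controls, and 27.5% and 27.3% for EKO against 33.9% and 24.9%. The sum of the other 15 lay between 94.0 and 119 CPM per kb in all libraries. Among all 36 genes, Lars2 had ranks 1 and 3 in the BKO libraries and ranks 7 to 17 in the others. The median of the 20 cytosolic genes was 51.6 to 58.5 CPM per kb, against 5.08 to 7.23 for the mitochondrial genes other than Lars2.

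**Figure D2:**
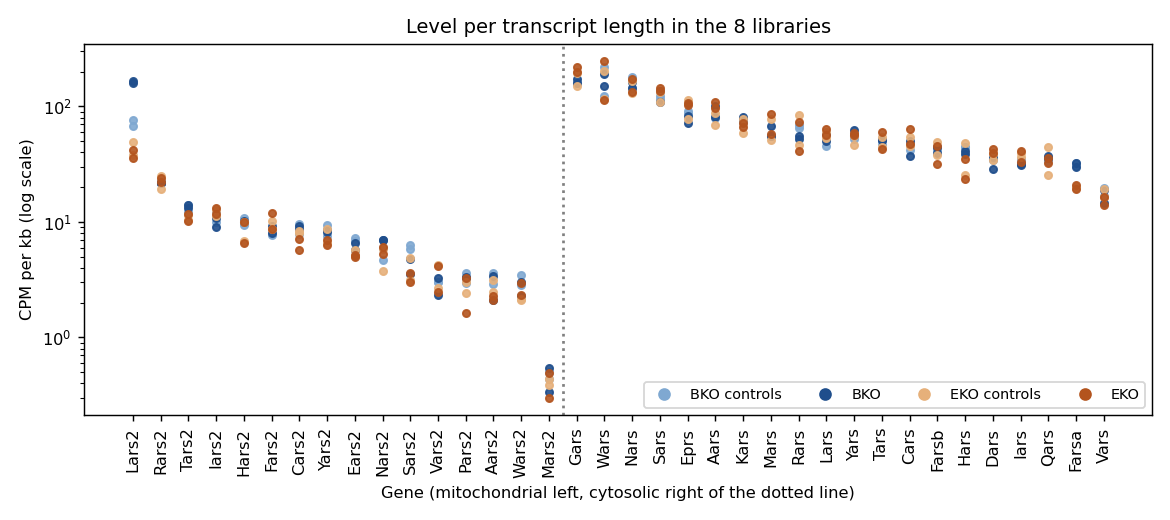
Level of each synthetase gene in CPM per kb of transcript (log axis), 1 point per library, coloured by group, with mitochondrial genes left and cytosolic genes right of the dotted line, each ordered by mean. Lars2 lies above all other genes left of the line in every library. Its BKO points, at 161 and 167 CPM per kb, reach the highest cytosolic genes.

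None of the other 15 genes classed as mitochondrial was called in BKO. In BKO, 6 of the other 15 had a log2 fold change above 0 and 9 below, with a median of -0.03 and a range of -0.56 to 0.39, beside a median of 0.01 over all genes tested. With the acinar level as a covariate the median of the 15 was -0.20. None of the 15 passed the test, and edgeR called 0 of 15041 genes in this comparison, which is 0%. At an unadjusted p under 0.05 were 0 of the 15, beside 0.977% of all genes (147), and DESeq2 called none of the 15, beside 0.0598% of all genes (9).

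Sars2, which charges mitochondrial serine tRNAs, had the lowest value. BKO libraries held 6.56 and 8.91 CPM and their controls 10.9 and 11.9 CPM, groups that did not overlap, at a log2 fold change of -0.56 ± 0.32 (adjusted p = 1). Nars2, for asparagine, had 26.3 and 26.5 CPM with deletion and 17.6 and 22.6 CPM for the controls, also without overlap, at 0.39 ± 0.26 (adjusted p = 1). Iars2, for isoleucine, had 59.7 and 49.8 against 54.5 and 68.5 CPM, and Wars2, for tryptophan, 10.1 and 13.4 against 15.2 and 12.6 CPM, both with overlap. The direction of Iars2 rests on 1 library: its log2 fold change of -0.17 was 0.01 without BKO control library 2.

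In EKO the same 15 genes had a median log2 fold change of -0.06, beside -0.01 over all genes, with 6 above 0 and 9 below. None of the 36 genes passed the test, beside 0.00665% of all genes (1), none had an unadjusted p under 0.05, beside 3.70% (556), and DESeq2 called none, beside 0.572% (86). Cars2, for cysteine, had 10.9 and 13.4 CPM with deletion and 15.3 and 15.9 CPM for the controls, at -0.36 ± 0.22 (adjusted p = 1). Aars2, for alanine, had 7.05 and 7.68 against 8.31 and 10.5 CPM, at -0.36 ± 0.32. Wars2 had 12.9 and 10.3 against 9.42 and 9.25 CPM, at 0.31 ± 0.26. In each of these 3 the groups did not overlap. Nars2 had 19.8 and 23.1 against 14.2 and 21.9 CPM, with overlap, and its log2 fold change of 0.25 turned to -0.06 without EKO control library 1.

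**Figure D3:**
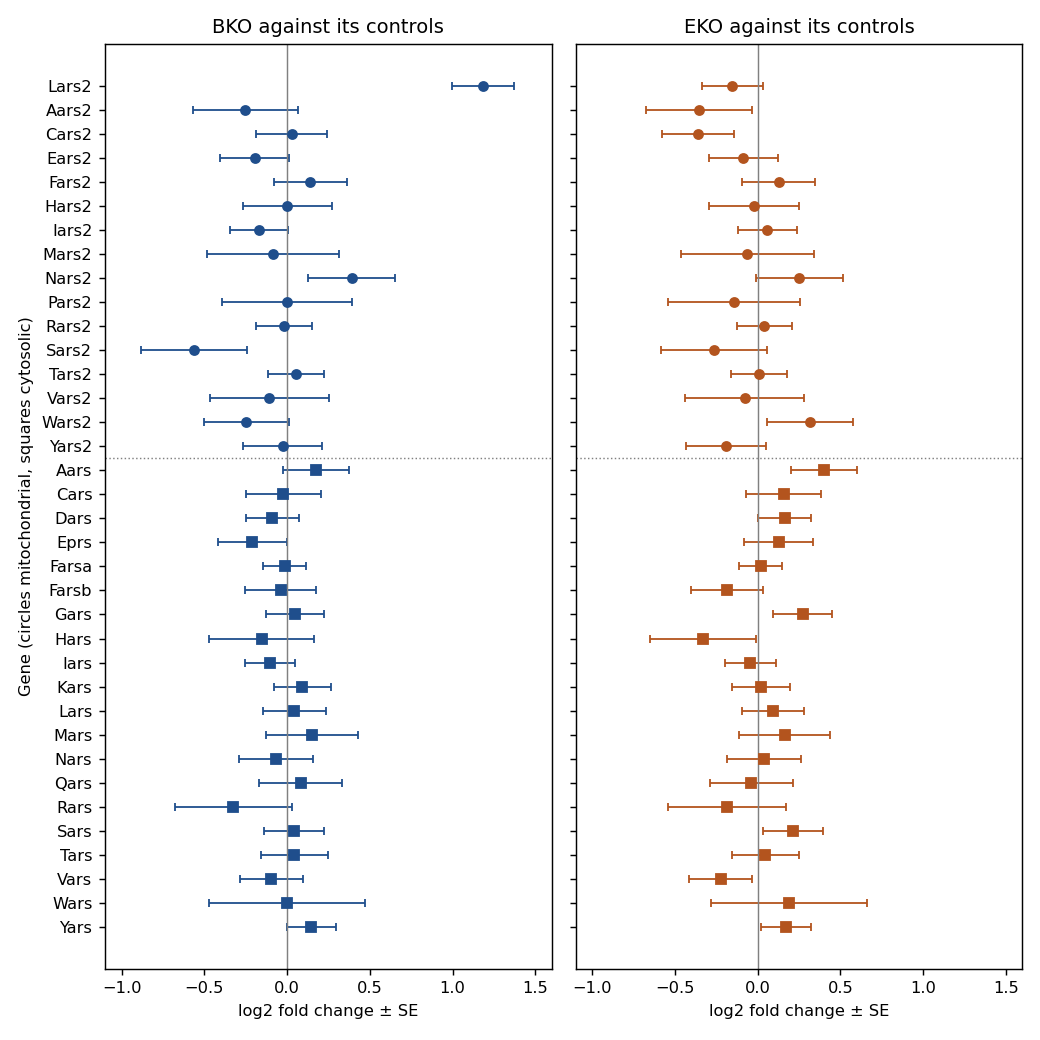
Log2 fold change with its standard error (edgeR fit of all 8 libraries) of the 36 synthetase genes in BKO (left) and EKO (right), each against its own controls; circles are mitochondrial and squares cytosolic genes. Lars2 in BKO, at 1.18, lies apart, and the other 35 genes lie between -0.56 and 0.39 in BKO and between -0.36 and 0.40 in EKO.

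Among the 20 cytosolic genes, 10 had a log2 fold change above 0 and 10 below in BKO, with a median of -0.01. The 8 genes of the multisynthetase complex (Dars, Eprs, Iars, Kars, Lars, Mars, Qars and Rars) split into 4 above and 4 below, between -0.32 and 0.15, and the 12 outside it into 6 and 6, between -0.15 and 0.18. Rars, for arginine, had 117 and 109 CPM with deletion and 147 and 136 CPM for the controls, at -0.32 ± 0.35 (adjusted p = 1). With the acinar level as a covariate this value turned to 0.23; the acinar sums given above moved with the groups, and their part in it was not tested. Eprs, the bifunctional enzyme for glutamate and proline, had 405 and 353 against 432 and 445 CPM, and Yars, for tyrosine, 165 and 183 against 152 and 162 CPM. Both lay without overlap and had an adjusted p of 1.

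Groups did not overlap, with BKO higher, for 7 of the 36 genes (Lars2, Fars2, Nars2, Kars, Mars, Qars and Yars), which is 19.4% beside 16.3% of all genes. They lay lower for 6 (Ears2, Sars2, Eprs, Hars, Iars and Rars), 16.7% beside 13.8%. Both shares are near those of all genes.

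In EKO, 14 of the 20 cytosolic genes had a log2 fold change above 0 and 6 below, with a median of 0.07; of the 12 outside the complex, 9 lay above 0. None passed the test. The 6 alpha cell markers summed to 22360 and 9195 CPM in EKO against 28050 and 37810 CPM, lower without overlap, and the part of this shift in the EKO values was not tested. Aars, the alanyl-tRNA synthetase, had 634 and 557 CPM with deletion and 397 and 505 CPM for the controls, at 0.40 ± 0.20, and had the smallest p of all 36 genes in EKO (unadjusted p = 0.0865, adjusted p = 1). Gars, for glycine, had 472 and 519 against 359 and 462 CPM, at 0.27 ± 0.18. Sars, for serine, had 512 and 486 against 389 and 470 CPM, at 0.22 ± 0.18. In all 3 genes EKO lay above its controls without overlap, and each value rests in part on EKO control library 1. Without it Aars stood at 0.20, Gars at 0.07 and Sars at 0.05, and without both EKO-model libraries numbered 1 at 0.13, 0.16 and 0.04.

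Vars, for valine, had 67.3 and 58.4 CPM with deletion and 79.5 and 67.4 CPM for the controls, at -0.22 ± 0.19, with EKO lower by a narrow margin. Without overlap, EKO was higher for 6 of 36 genes (Wars2, Aars, Dars, Gars, Sars and Yars), 16.7% beside 12.5% of all genes, and lower for 3 (Aars2, Cars2 and Vars), 8.33% beside 9.57%. The difference between the BKO and EKO effects passed edgeR's test for none of the 36 genes, as for 0% of all genes; at an unadjusted p under 0.05 stood 1.01% of all genes (152), and DESeq2 called none of the 35 genes other than Lars2, beside 0.0399% of all genes (6). Among the 35 genes other than Lars2 it ran from -0.56 for Wars2 to 0.39 for Cars2.

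Levels were also compared between the models, where edgeR and limma-voom called none of the 36 genes. In the controls, Farsa, the alpha subunit of the cytosolic phenylalanyl-tRNA synthetase, measured 58.7 and 55.8 CPM in the BKO model and 35.8 and 36.3 CPM in the EKO model. BKO and EKO libraries stood at the levels of their own controls, 54.8 and 58.6 CPM and 35.2 and 37.8 CPM. All 4 libraries of the BKO model thus lay above all 4 of the EKO model, with replicates of a group within 1.07 times of each other. The log2 fold change between the controls was 0.67 ± 0.13, or 1.59-fold, which edgeR did not call (unadjusted p = 0.00182, adjusted p = 0.361) and DESeq2 did (adjusted p = 0.000889). Its log2 fold change was -0.01 ± 0.13 in BKO and 0.02 ± 0.13 in EKO, comparisons that share these control libraries.

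Farsb, the beta subunit of the same enzyme, overlapped between the models. BKO-model libraries held 85.9 and 89.6 CPM (controls) and 90.3 and 80.6 CPM (f/f), and EKO-model libraries 101 and 77.2 CPM (controls) and 92.1 and 64.6 CPM (f/f), with a log2 fold change between the controls of -0.02 ± 0.22 (adjusted p = 0.995). Per transcript length, Farsa reached 32.1 CPM per kb in the BKO model and 20.7 in the EKO model at most, and Farsb at 31.7 to 49.6 over all libraries. The models differ in Cre transgene, tamoxifen, depth and possibly sequencing run, and these cannot be told apart. Levels of other RNA classes went with the model as well, with none called by edgeR. For 6 long noncoding RNAs (Malat1, Neat1, Meg3, Kcnq1ot1, Gas5 and Snhg1) the fitted level was higher in the BKO controls, with a median log2 difference of 0.65. Groups did not overlap for 3 of the 6, beside 15.5% of all genes. Neat1 measured 3180 and 1970 CPM there against 618 and 796 CPM, and Gas5, with overlap, 90.5 and 98.5 against 45 and 109 CPM. The short RNAs Rmrp and Rpph1 both lay lower without overlap, with a median of -1.38, but each rested on only 10 to 50 reads in a control library. The part of either class in these values was not tested.

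**Figure D4:**
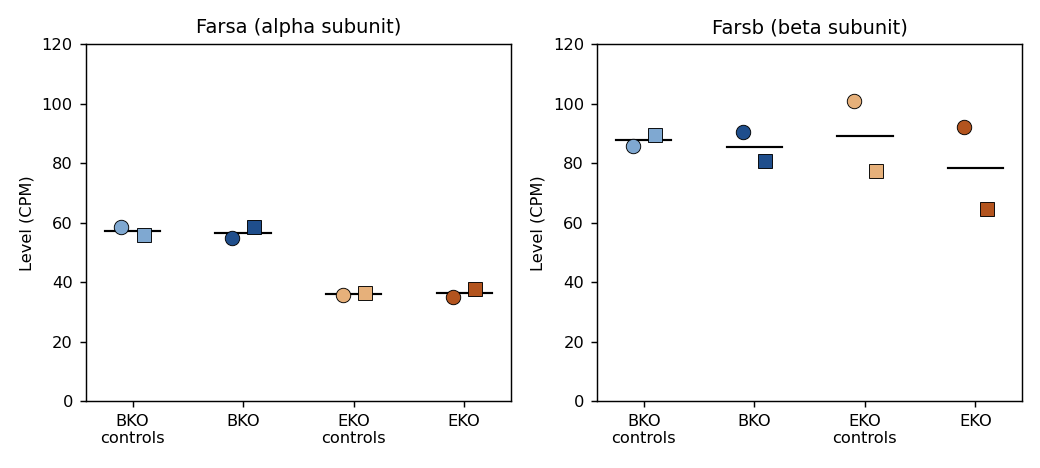
Levels of Farsa (left) and Farsb (right), the subunits of the cytosolic phenylalanyl-tRNA synthetase, in CPM by group; circles are libraries numbered 1, squares libraries numbered 2 and lines the means of the 2 libraries. Farsa lies at 54.8 to 58.7 CPM in the BKO model and 35.2 to 37.8 CPM in the EKO model, and Farsb overlaps between the models.

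Lars2 was also higher in the BKO controls than in the EKO controls, at 0.73 ± 0.19 on the log2 scale or 1.66-fold. These control libraries entered its choice, so this is a description too, with no test. Between the controls, 11 of the other 15 mitochondrial genes lay higher in the BKO model, with a median of 0.18, beside -0.04 over all genes; the 20 cytosolic genes had a median of -0.01, with -0.09 for the 8 of the complex and 0.03 for the 12 outside it. The mitochondrial median was 0.06 with the acinar level as a covariate, 0.06 without EKO control library 1 and 0.34 without EKO control library 2. Wars2 had a log2 fold change of 0.58 ± 0.26, from the values given above. Sars2 followed at 0.61 ± 0.32, Ears2, for glutamate, at 0.38 ± 0.21 and Tars2, for threonine, at 0.27 ± 0.17, each without overlap and with an adjusted p of at least 0.925. edgeR called none of the 36 genes, beside 0.00665% of all genes (1), and of the 35 genes other than Lars2, DESeq2 called Farsa, beside 1.48% of all genes (218). Of the cytosolic genes, Iars had 154 and 147 CPM for the BKO model against 163 and 174 CPM, lower without overlap.

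Groups of controls did not overlap, with the BKO model higher, for 6 of 36 genes (Lars2, Ears2, Sars2, Tars2, Wars2 and Farsa), 16.7% beside 15.5% of all genes, and lower for 2 (Fars2 and Iars), 5.56% beside 14.4%. All 4 libraries of the BKO model lay above all 4 of the EKO model for Lars2, Ears2, Tars2 and Farsa, 11.1% beside 6.15% of all genes, and below for none, beside 4.75%. Between the BKO and the EKO libraries, a comparison added after the values were seen, Farsa stood at 0.64 ± 0.13 (adjusted p = 0.283; DESeq2 adjusted p = 0.00108) and Lars2, chosen on these libraries, at 2.07 ± 0.19. Of the 35 genes other than Lars2, edgeR called none there, beside 0.0133% of all genes, DESeq2 called Farsa, beside 2.55%, and Farsa alone had an unadjusted p under 0.05, beside 8.03%. These libraries did not overlap for 11 of 36 genes that were higher in BKO, beside 18.7% of all genes, and 7 that were lower, beside 20.4%.

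The EKO-model libraries were also read by replicate number. In both EKO control 1 and EKO 1, 10 of the 15 mitochondrial genes other than Lars2 lay below both libraries numbered 2 and none above, where 28.4% of all genes lay below and 30.5% above. Of the 20 cytosolic genes, 8 (Farsb, Hars, Kars, Nars, Qars, Rars, Tars and Wars) lay above and 3 (Cars, Farsa and Mars) below. The share above was larger than the 30.5% of all genes, and the share below smaller than their 28.4%. Hars measured 95.8 and 69.3 CPM in EKO control 1 and EKO 1 against 50.7 and 47.2 CPM in the libraries numbered 2. Wars, an interferon-inducible synthetase, measured 367 and 453 against 213 and 208 CPM, and Mars, for methionine, 150 and 168 against 227 and 254 CPM. The 2 libraries numbered 1 are those with the high acinar and stellate sums given above, and the part of those cells in these values was not tested. In the BKO model, where acinar sums were low in all libraries, 3 of the 15 mitochondrial genes lay lower and 1 higher in the libraries numbered 1, and 3 of the 20 cytosolic genes lower and 0 higher, beside 16.4% and 16.0% of all genes.

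Hars and Mars, named among the controls by rule, owe their direction there to 1 library. Their log2 fold changes between the controls, 0.28 ± 0.32 and -0.21 ± 0.28, turned to -0.11 and 0.12 without EKO control library 2. Exons of 9 of the 36 genes overlap another gene on the opposite strand: Hars and Hars2 overlap each other, Mars overlaps Ddit3, and Ears2, Fars2, Iars2, Vars2, Farsb and Yars overlap other genes. Whether reads were counted by strand is not given in the sources used here, so values of these 9 are uncertain. Aars overlaps Exosc6 on the same strand, and its values are uncertain for that reason. Matches to transcripts of Naxd cover 425 bases of Cars2, 22.3% of its transcript. Nars2 shares 284 bases, 7.52% of its transcript, with the antisense gene C230038L03Rik, so values of Cars2 and Nars2 are uncertain too.

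**Figure D5:**
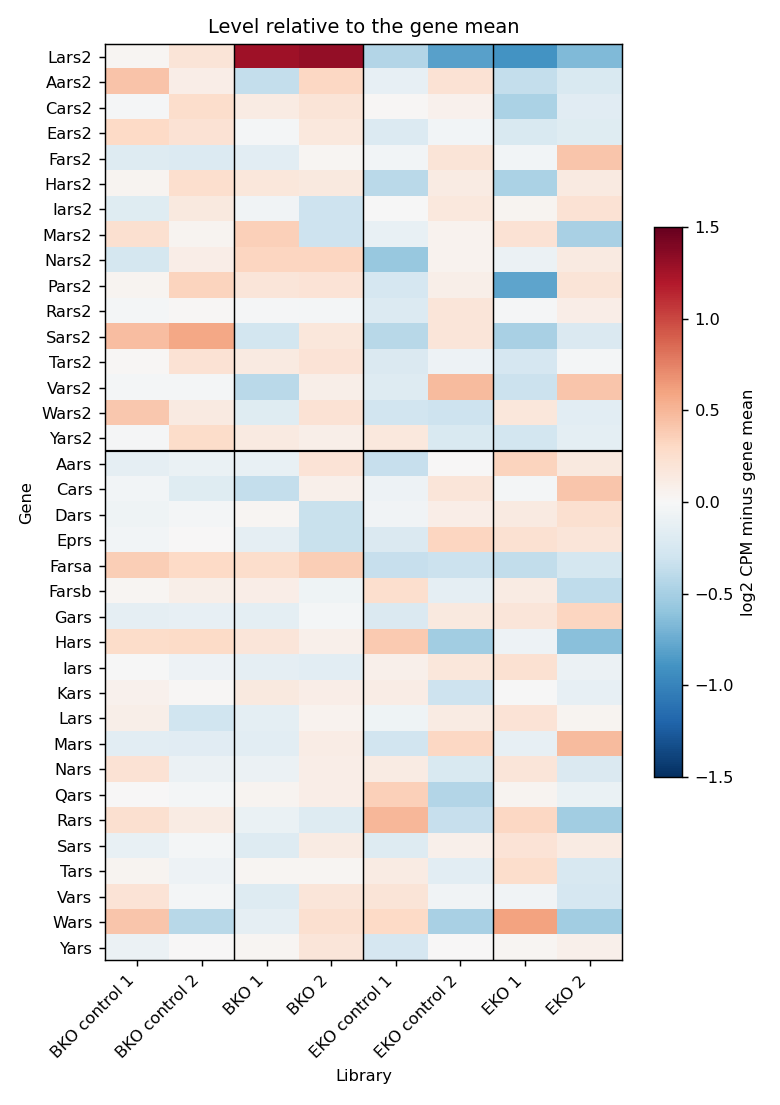
Log2 CPM of the 36 synthetase genes in the 8 libraries minus the mean of each gene (red above, blue below), mitochondrial genes above the black line and cytosolic genes below it. Lars2 is high in both BKO libraries, Farsa separates the models, and Hars, Rars and Wars are higher in the EKO-model libraries numbered 1 than in those numbered 2.

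Genes that work beside the synthetases were not called in either knockout. Of 76 mitochondrial ribosomal protein genes, 37 had a log2 fold change above 0 and 39 below in BKO, with a median of 0.00, and 40 and 36 in EKO, with a median of 0.02. None passed the test in either comparison, beside 0% and 0.00665% of all genes; Mrpl1 in EKO had the smallest p of the named ones, at 0.53 ± 0.19 (adjusted p = 1), from 32.8 and 32.7 CPM to 47.2 and 47.5 CPM. Of 17 mitochondrial translation factors measured, 10 lay above 0 in BKO and 8 in EKO, and of 14 genes of mitochondrial tRNA maturation 4 and 5, none passing the test. The 3 scaffold genes of the multisynthetase complex had median log2 fold changes of -0.02 in BKO and -0.22 in EKO. Of 6 other synthetase genes, outside the 36, 3 lay above 0 in BKO and 3 in EKO, and none passed the test.

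ATF4 targets, among them genes of amino acid synthesis and transport, lay above 0 for 20 of 30 in BKO, with a median of 0.11, and for 23 of 30 in EKO, with a median of 0.20, where 51.1% and 48.6% of all genes lay above 0. None passed the test. Between the controls, whose libraries these comparisons share, 8 of 30 lay above 0, with a median of -0.15. Pycr1, of proline synthesis, had 35.8 and 46.2 CPM with BKO deletion and 29.2 and 22.9 CPM without, at 0.66 ± 0.20 (adjusted p = 1). Cth, cystathionine gamma-lyase, had 0.876 and 0.702 CPM with EKO deletion and 3.05 and 1.44 CPM without, at -1.503 ± 0.55 (adjusted p = 1).

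Of the 8 eIF2 kinase and GCN genes measured, 3 lay above 0 in BKO and 4 in EKO. Leucine sensing through mTORC1 (18 genes) split into 9 and 9 in both models, and leucine catabolism (13 genes) had 8 above 0 in BKO and 6 in EKO. None of these genes passed the test. Bcat2, the mitochondrial branched-chain aminotransferase, had 14.5 and 17.9 CPM with EKO deletion and 31.4 and 19.4 CPM without, at -0.65 ± 0.26 (adjusted p = 1). The 12 interferon-gamma response genes all lay higher in the BKO controls than in the EKO controls, with a median log2 difference of 1.96 and 9 at an unadjusted p under 0.05, beside 5.54% of all genes (833), while none passed the adjusted test. In BKO 2 of the 12 lay above 0, with a median of -0.33, and in EKO 9 of the 12, with a median of 0.24. Cxcl10, with the smallest p of the 12 in BKO, went against that median. It had 466 and 228 CPM with BKO deletion and 168 and 138 CPM without, at 1.18 ± 0.44 (edgeR unadjusted p = 0.0346), and did not pass the adjusted test.

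The genes most like Lars2 over the 8 libraries were found by the root mean square distance between centred log2 CPM profiles, among 10903 genes with a mean of at least 5 CPM. Adora2b, an adenosine receptor gene, came first at 0.33, followed by Gpx3, Tspan14, Ccrl2, Ifngr2, Ube2l6, 2810021B07Rik and Pfkfb4, the last at 0.41. BKO libraries held 40.6 and 55.3 CPM of Adora2b against 37.0 and 26.3 CPM for their controls, and EKO libraries 17.6 and 19.0 CPM against 20.9 and 14.9 CPM. In all 8 genes BKO lay above its controls without overlap, as their choice favours, yet their log2 fold changes in BKO ran only from 0.32 to 0.60, below the 1.18 of Lars2. Among the synthetase genes described here Farsa was nearest, at 0.59, and then Tars2 at 0.70.

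Genes beside Lars2 in the GRCm38.p6 annotation were read as well. Cdcp1, a membrane glycoprotein gene on the side before Lars2, had 74.0 and 52.7 CPM with BKO deletion and 31.7 and 22.3 CPM for the controls, without overlap, at a log2 fold change of 1.23 ± 0.42 (adjusted p = 1). Limd1, the nearest protein-coding gene on the other side, had 97.8 and 73.7 against 62.7 and 33.6 CPM, at 0.83 ± 0.37 (adjusted p = 1). Tmem158, which lies between Cdcp1 and Lars2, stood at 0.511 to 1.97 CPM over all libraries, on 277 reads in total. BKO held 0.89 and 1.3 CPM of it against 0.766 and 0.621 CPM, at 0.66 ± 0.71. Of the 4 annotated genes on each side of Lars2, only Cdcp1, Tmem158 and Limd1 are in the count table. All of these lay higher in BKO without overlap, as did 16.3% of all genes. In EKO, Cdcp1 overlapped its controls at 43.1 and 40.2 CPM against 46.5 and 19.7 CPM, and Limd1 lay higher at 63.9 and 108 CPM against 58.1 and 62.2 CPM.

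Counting could bear on some genes. The Lars2 transcript shares a stretch of 72 bases, 1.85% of its length, at 98.6% identity with Gm15564, and counts per gene do not show where in Lars2 the reads lie, so the part of this stretch was not tested. Reads aligned to several places, which were not counted to genes, took 37.0% and 36.4% of the BKO control libraries and 35.8% and 34.5% of the BKO libraries. The short RNAs Rmrp and Rpph1 overlapped between BKO and its controls, and Rn4.5s, Rprl1, Rprl2 and Rprl3 had no read. Terc had 5 reads in BKO 2 and at most 1 elsewhere. Of the 36 genes, 14 share at least 50 bases at 95% identity or more with another gene, but none over 50% of its transcript; the longest such share was 49.9% for Iars, with the processed pseudogene Gm4849, so values of Iars are uncertain.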

How the data were processed

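Poly(A) RNA-seq of islets was measured in 8 libraries, from stranded poly(A) libraries, per the labels' protocols. The authors deposited raw counts per gene symbol; TopHat, HTSeq and mm9 are named, without versions, per the submitters' processing notes. HTSeq's rows that name no gene were left out; reads aligned to several places took 31.6% to 39.7% of a library and reads outside genes 8.19% to 11.1%. The authors also deposited tables of their own log2 fold changes and p-values for each model; these entered no test. Their columns of mean signal (a mean normalised count) and of a test score were made by the authors, per the file headers, and are not printed; the tool is not named there. All 8 columns of the count table matched a library by name.

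From the counts, edgeR 4.0.16 in R 4.3.3 (quasi-likelihood F test, two-sided, TMM, filterByExpr with a count minimum of 10) fitted all 8 libraries as 4 groups, with Benjamini-Hochberg adjustment over 15041 genes and a threshold of 0.05. Residual degrees of freedom were 4 and the common biological coefficient of variation 0.431. Levels are CPM of TMM-scaled libraries, and log2 CPM used a prior count of 2. DESeq2 1.42.0, limma 3.58.1 (voom), other scaling and filtering, fits of 4 libraries, the acinar level as a covariate, the replicate number as a block and fits without single libraries were alternatives. The test was also run on simulated data whose spread was set far smaller than that of these libraries. That run therefore does not show what the test can detect here. Genes named with values were the 4 mitochondrial and 4 cytosolic genes of smallest unadjusted p in each comparison, and up to 2 genes per list and comparison. The genes and lists were chosen with earlier results of these data known. Transcript lengths came from GENCODE (GRCm38), another build than that of the counts, and no coordinates of the counts are given. The 2 libraries of each group differed by more than counting error: the chi-square between them, divided by its degrees of freedom, was 68.4 to 224. That chi-square was taken over genes of the whole count table and not over the genes described alone. Precision was limited by the 2 libraries per group, and the part of read depth in it was not tested for the genes described.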

Additional observations from a re-analysis of the deposited data

How the results depend on the processing

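None of the 36 synthetase genes was called by edgeR in any comparison under any alternative fitted with it, nor by limma-voom. With DESeq2, 1 gene was called in BKO (Lars2), 1 in the difference of effects (Lars2) and 2 between the controls (Lars2 and Farsa, the latter at 0.67); the libraries compared entered the choice of Lars2, so its calls support nothing. Lars2 in BKO ran from 1.10 to 1.27 over all alternatives. Without the EKO-model libraries numbered 1, where lone samples are assumed to vary like the other groups, Lars2 stood at 0.15 in EKO, 1.03 in the difference and 0.95 between the controls; the cause was not tested. Between BKO and EKO libraries in place of the controls, Lars2 stood at 2.07. With each library left out in turn, the Lars2 difference ran from 1.17 to 1.51, its EKO value from -0.33 to 0.01 and its controls value from 0.56 to 0.93. Left out in the same way, Iars2 in BKO ran from -0.32 to 0.007, Nars2 in EKO from -0.064 to 0.60, and Hars and Mars between the controls from -0.11 to 0.81 and from -0.48 to 0.12. The acinar covariate turned Rars in BKO to 0.23. These are the 5 reversals among 392 alternative values of the named genes other than Lars2, whose uncalled EKO value also changed sign, as given above. Genes at an unadjusted p under 0.05, 147 in BKO, 556 in EKO, 152 in the difference and 833 between the controls, became 511, 254 and 549 with only the 4 libraries compared (no such fit exists for the difference), 1109, 940, 464 and 1680 with the acinar covariate, and 523, 1119, 684 and 2663 without the EKO-model libraries numbered 1. Left out singly, libraries moved these counts between 72 and 250, 379 and 1621, 81 and 596, and 433 and 1752. The labels do not say that replicate numbers pair libraries. The log2 difference between library 1 and library 2 of a group was correlated over genes with that of another group. The correlation was 0.31 for BKO and its controls, 0.49 for EKO and its controls and 0.41 for the controls of both models. With the replicate number as a block, 0 of the 36 genes were called. Lars2 then stood at 1.18 in BKO, -0.16 in EKO, 1.34 in the difference and 0.73 between the controls. Farsa between the controls ran from 0.63 to 0.70, with adjusted p from 0.000889 to 1.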
